A study of Mus musculus with 18 samples.

Results

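The 9 genes described here are the proneural transcription factors Neurog1, Neurog2, Neurod1 and Neurod4, their relatives Hes6, Nhlh1 and Nhlh2, and the Delta ligands Dll1 and Dll3. They were taken by name: every array probe whose annotated gene symbol equalled 1 of these 9 was a member, which gave 13 of 45281 probes and 9 of 30869 symbols. Hes6 had 3 probes, Neurog2 and Neurod4 had 2 each, and the others had 1. The cells were ESD3 (D3), a mouse embryonic stem cell line of strain 129s2/SvPas that had been maintained on feeder cells of mouse embryo fibroblasts. All had received a virus that carries a short hairpin RNA: control cells carried one against luciferase, which has no target in mouse cells, and HPRT-knockdown cells carried one against HPRT, the purine salvage enzyme whose loss causes Lesch-Nyhan disease. Both were profiled as ES cells, as spherical neural masses (SNM), which are aggregates of neural precursors, and at the final neuronal stage of a protocol that aims at dopaminergic neurons. Illumina MouseWG-6 v2 BeadChips measured total RNA, with 3 arrays for each of the 6 conditions and 18 arrays in all. RNA of replicate cultures had been pooled before hybridization, so that all 3 arrays of a condition read a common pool and every p-value below measures the spread between arrays, not between cultures. In such bulk RNA, fewer cells of a type and less RNA per cell cannot be told apart.

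Proneural factors are basic helix-loop-helix (bHLH) proteins that pair with E proteins, bind E-box sequences in DNA and switch on neuronal genes in dividing precursors. Among their best known targets are the Delta ligands, which sit on the cell surface, and Dll1 there activates Notch receptors on neighbouring cells. Notch then induces Hes and Hey repressors, which hold proneural genes down, so that at any time only some precursors of the embryonic brain and spinal cord enter differentiation while the others stay in cycle. Hes6 opposes Hes1 and promotes neuronal differentiation, and Dll3 resides mostly inside the cell and dampens Notch signalling.

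Levels are given as log2 signal after background correction and quantile normalization, and a probe was detected on an array where its detection p-value against the negative control beads was under 0.05. Between 18827 and 22202 probes were detected per array, and arrays of a condition correlated with each other at 0.992 to 0.997. The median probe varied within a condition by an SD of 0.11. Hprt1, the targeted gene, was lower in the knockdown arrays by 94.1% in ES cells, 70.5% in SNM and 95.4% in neuronal cells. The arrays labelled neuronal held more than neurons. Of 9 skeletal muscle marker genes, all 9 were detected in control cells at that stage, with a summed background-corrected signal of 43817 to 43857 per array against 119 to 203 in knockdown cells, where Myod1, Myog, Myf5, Myf6 and Ckm, genes that define muscle, were not detected. Of 8 oligodendrocyte markers, 8 were detected in the knockdown cells at that stage, with a summed signal of 62552 to 65960 against 3203 to 3377 in control cells.

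From the ES to the SNM stage, Neurog2, Neurod4, Hes6, Dll1 and Dll3 rose in control cells, and the same 5 genes rose in HPRT-knockdown cells. From there to the neuronal stage Neurog2, Neurod4 and Dll1 fell in both, Neurod1 and Hes6 fell in the knockdown cells, and Dll3 fell in control cells but rose in knockdown cells. A gene was tested if every array of 1 or more of the conditions compared detected its brightest probe, and called where limma gave a Benjamini-Hochberg adjusted p under 0.05 over all probes tested and a change of at least 1.5-fold. Of the 9 genes, 7 were tested between the ES and SNM stages. In control cells 5 of these 7 were called higher and 0 lower, beside 23.7% of all 20703 probes tested that were called higher and 25.4% lower; the median log2 fold change was 1.88 over the 7 genes (1.70 with genes undetected in ES cells at their lower bound) and -0.08 over all probes tested. In knockdown cells 5 of 7 were called higher and 0 lower, beside 26.4% and 30.9% of all probes tested, and the median was 1.41 against -0.11. Neurog2 and Neurod4 were not detected on any ES array and passed the filter only through the SNM stage. So did Neurog1 in both cell types and Dll1 in control cells, with detection on only some ES arrays. These counts and medians therefore rest partly on background readings. From the SNM to the neuronal stage, 4 of 7 genes were called lower and 0 higher in control cells, beside 15.1% of probes called lower and 14.3% called higher, with a median of -0.99 against -0.07. In knockdown cells 5 of 7 were called lower and 1 higher, beside 14.8% of probes called lower and 13.8% called higher, with a median of -1.05 against -0.02. On the knockdown neuronal arrays Neurog1 and Neurog2 were undetected and Neurod4 was detected on 1 of 3. This count and median thus include background readings too.

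**Figure D1:**
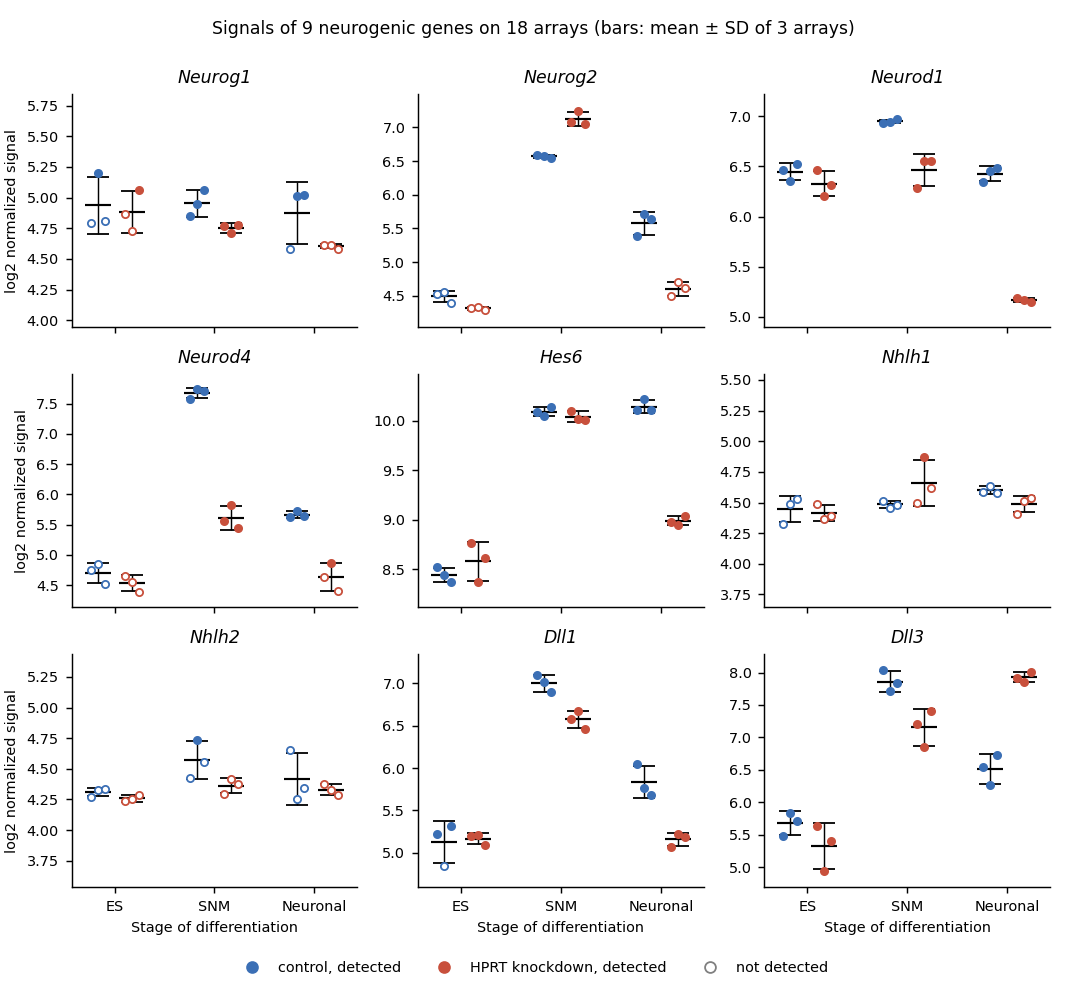
Log2 normalized signal (vertical axis, each panel with its own range) of the 9 genes at the ES, SNM and neuronal stages, 1 point per array, control cells in blue and HPRT-knockdown cells in red, with open points where the probe was not detected and bars for the mean ± SD of 3 arrays. Nhlh1 and Nhlh2 stay near background, Neurod4 peaks in control SNM at a mean of 7.67, and Dll3 is higher in knockdown cells at the neuronal stage, at 7.92 against 6.51.

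**Figure D2:**
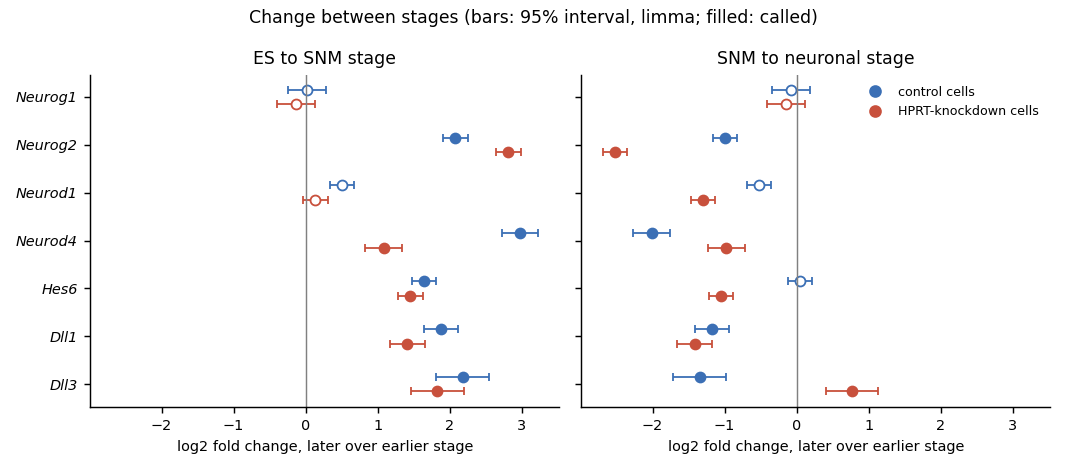
Log2 fold change between successive stages (horizontal axis) for the 7 genes tested, control cells in blue and HPRT-knockdown cells in red, with 95% intervals from limma and filled points where called. Between the SNM and neuronal stages, Dll3 is the gene whose called changes point in opposite directions, -1.34 in control and 0.77 in knockdown cells.

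Neurog2 (neurogenin 2, on chromosome 3), which starts neurogenesis in cortex, spinal cord and midbrain, was not detected on any ES array by its brightest probe, to which the values below belong. Its log2 signal there was 4.53, 4.55 and 4.39 on the 3 control arrays and 4.32, 4.34 and 4.29 on the 3 knockdown arrays. Every SNM array detected it, at 6.58, 6.58 and 6.55 in control cells and 7.09, 7.24 and 7.05 in knockdown cells. Every knockdown SNM array lay above every control SNM array. Neuronal control arrays gave 5.39, 5.71 and 5.63, and the knockdown arrays, on none of which it was detected, 4.50, 4.70 and 4.62. The groups did not overlap, and the knockdown neuronal arrays were back in the range where the probe is not told from background. Against that background, the rise to the SNM stage was at least 3.25-fold in control cells (limma adjusted p = 8.66e-13) and at least 4.58-fold in knockdown cells (limma adjusted p = 1.35e-14). From the SNM to the neuronal stage it fell 1.99-fold in control cells and at least 5.22-fold in knockdown cells. The order of means was knockdown SNM, control SNM, control neuronal, knockdown neuronal, control ES and knockdown ES; only knockdown neuronal and control ES overlapped among neighbours, and the last 3 were not detected. Its other probe, detected on 1 control ES array, rose to the SNM stage and fell afterwards in knockdown cells too, with calls in both steps, while its fall in control cells (log2 fold change -0.56) was not called.

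Neurog1 (neurogenin 1, chromosome 13), which acts in sensory ganglia and ventral neural tube, stayed close to background. Its log2 means lay between 4.60 and 4.95 across the 6 conditions, and all SNM arrays detected the probe, whereas no ES or neuronal condition did so on each of its arrays. In the order of its means each neighbour overlapped the next except knockdown SNM and knockdown neuronal, and no change between stages was called. The largest of its 4 stage changes was a log2 fold change of -0.15 (95% interval -0.41 to 0.11), between SNM and neuronal knockdown cells.

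Neurod4 (chromosome 10), a bHLH factor of early postmitotic neurons that neurogenins induce, rose in control and knockdown cells. It was undetected on all ES arrays, with log2 signals of 4.74, 4.84 and 4.51 in control and 4.64, 4.55 and 4.38 in knockdown cells. The SNM arrays gave 7.58, 7.74 and 7.70 in control cells and 5.56, 5.82 and 5.44 in knockdown cells. Control SNM stood apart from every other condition, and knockdown SNM overlapped control neuronal cells, which gave 5.62, 5.73 and 5.64. In knockdown neuronal cells the values were 4.63, 4.86 and 4.40, and the probe was detected on 1 of 3 arrays. Its rise to the SNM stage was at least 7.0-fold in control cells (limma adjusted p = 1.39e-12) and at least 1.60-fold in knockdown cells (limma adjusted p = 3.79e-07). It then fell 4.03-fold in control cells and 1.97-fold in knockdown cells, the latter against a group measured on 1 of 3 arrays. Without background correction its log2 changes in knockdown cells shrank to 0.50 or 0.31 for the rise and -0.45 or -0.51 for the fall, by scaling, and neither was called. The order was control SNM, control neuronal, knockdown SNM, control ES, knockdown neuronal and knockdown ES, where control SNM and knockdown SNM were the conditions that did not overlap the next. Its other probe was not detected on any of the 18 arrays, so that all values of Neurod4 rest on 1 probe.

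Neurod1 (chromosome 2), which drives neuronal and endocrine differentiation, was detected on all 18 arrays. Its log2 signals were 6.46, 6.35 and 6.52 in control ES cells and 6.46, 6.20 and 6.32 in knockdown ES cells. In SNM they were 6.93, 6.95 and 6.97 in control and 6.28, 6.56 and 6.55 in knockdown cells. Unlike Neurog2 and Neurod4, it was thus as readily detected in ES cells as later. Neuronal control cells gave 6.34, 6.46 and 6.48 and neuronal knockdown cells 5.19, 5.17 and 5.15. The knockdown neuronal arrays were the lowest of all 18. The fall from SNM to neuronal knockdown cells was 2.46-fold (limma adjusted p = 7.13e-10), and in control cells the change of -0.52 on the log2 scale stayed under 1.5-fold. Between control SNM at the top and knockdown neuronal cells at the bottom, the other 4 conditions overlapped their neighbours.

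Hes6 (chromosome 1), a Hes family member that proneural factors induce and that acts for neuronal differentiation, was detected on all arrays by all 3 probes. Its brightest probe gave 8.52, 8.45 and 8.38 in control ES cells and 8.76, 8.37 and 8.61 in knockdown ES cells. In SNM the values were 10.08, 10.05 and 10.14 for control and 10.10, 10.01 and 10.00 for knockdown cells. The 6 SNM arrays formed a single range. Control cells of the neuronal stage stayed at 10.10, 10.22 and 10.10, while knockdown cells gave 8.98, 8.95 and 9.04. Knockdown neuronal cells lay below all SNM arrays and above all ES arrays. The rise from the ES stage was 3.12-fold in control and 2.74-fold in knockdown cells (limma adjusted p = 1.41e-11 and 4.83e-11), and the fall from SNM to the neuronal stage in knockdown cells was 2.07-fold (limma adjusted p = 1.01e-08). In control cells the step from SNM to the neuronal stage measured 0.05 (95% interval -0.12 to 0.22) on the log2 scale, and its sign turned under 1 other scaling and with the mean of the probes. Control neuronal, control SNM and knockdown SNM overlapped in the order of means, as did the ES conditions. All 3 probes gave the same calls in every comparison tested, with log2 fold changes of 1.52 to 1.64 for control cells between ES and SNM and -1.05 to -0.71 for knockdown cells between SNM and neuronal stages.

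Nhlh1 (chromosome 1) and Nhlh2 (chromosome 3), bHLH factors of young neurons, were each detected on 1 of 18 arrays, an SNM array in both cases, from knockdown cells for Nhlh1 and from control cells for Nhlh2. Their log2 means ran from 4.41 to 4.66 and from 4.26 to 4.57. Neither gene was tested in any comparison, and a difference at this level was not detectable on these arrays.

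Dll1 (chromosome 17), the Delta ligand that signals from differentiating cells to their neighbours, was at 5.22, 4.84 and 5.31 in control ES cells, where it was detected on 2 of 3 arrays, and at 5.19, 5.21 and 5.09 in knockdown ES cells. It reached 7.10, 7.02 and 6.90 in control and 6.58, 6.67 and 6.47 in knockdown cells of the SNM stage. All control SNM arrays lay above all knockdown SNM arrays. Later, neuronal control cells gave 6.04, 5.77 and 5.69 and knockdown cells 5.07, 5.22 and 5.18. The knockdown neuronal arrays overlapped the ES arrays of both cell types, and control neuronal arrays did not. The rise to the SNM stage was 3.68-fold in control and 2.66-fold in knockdown cells (limma adjusted p = 2.18e-10 and 6.25e-09), and the later fall was 2.25-fold and 2.67-fold (limma adjusted p = 1.71e-07 and 1.77e-08).

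Dll3 (chromosome 7), the divergent Delta ligand, followed Dll1 to the SNM stage and parted from it afterwards. Its log2 signal was 5.47, 5.84 and 5.71 in control ES cells and 5.64, 4.94 and 5.41 in knockdown ES cells. In SNM it was 8.03, 7.71 and 7.83 in control cells and 7.21, 6.85 and 7.41 in knockdown cells. The control SNM arrays lay above the knockdown SNM arrays. Neuronal control cells gave 6.55, 6.26 and 6.73 and knockdown cells 7.92, 7.85 and 8.0. Here every knockdown array exceeded every control array, and knockdown neuronal overlapped control SNM at the top of the order. Dll3 rose 4.54-fold to the SNM stage in control cells and 3.54-fold in knockdown cells (limma adjusted p = 8.17e-09 and 5.86e-08). It then fell 2.54-fold in control cells (limma adjusted p = 5.00e-06) and rose 1.70-fold in knockdown cells (limma adjusted p = 0.00114). The ES conditions overlapped each other, and control neuronal cells lay between them and knockdown SNM without overlap.

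Since E-boxes are the sites that proneural factors bind, the 250 bases before the RefSeq transcript starts of the 9 genes (GRCm38.p6, 12 starts, 3 genes with 2 starts) were searched for CANNTG, which reads the same on both strands in its fixed letters. It stood before at least 1 start of 6 genes (Neurod1, Hes6, Nhlh1, Nhlh2, Dll1 and Dll3), and 66.2% of 32841 mouse promoter windows of the same length held it. The form CAGCTG, a subset of CANNTG, stood before 3 genes, Hes6, Dll1 and Dll3, and 13% of all windows held it. The form CAGATG stood before Nhlh1 and Nhlh2, beside 14.4% of windows. Searched on both strands, the N-box CACNAG stood before Neurod4, Hes6 and Nhlh2 (36.7% of windows) and the RBPJ motif TGGGAA before Nhlh1 and Nhlh2 (21.6% of windows). Genes were counted by a match at any of their starts, while the shares are per single window, so the units differ. Dll1 held CAGCTG only at its more upstream start. These matches are letters in a window, and no binding was measured. The windows of Hes6, Dll1 and Dll3 are printed because they hold CAGCTG, and that of Neurod4, which rose to the SNM stage as well, because no CANNTG stood in it. Each is the window of the more upstream start where there are 2, in the direction of the gene, with every CANNTG in capitals.
Hes6, chr1:91414039-91414288, minus strand: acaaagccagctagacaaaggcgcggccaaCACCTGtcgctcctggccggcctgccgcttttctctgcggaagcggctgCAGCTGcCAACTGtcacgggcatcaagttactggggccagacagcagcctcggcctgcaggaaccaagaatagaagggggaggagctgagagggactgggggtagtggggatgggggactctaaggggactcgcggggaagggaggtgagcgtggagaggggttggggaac
Dll1, chr17:15376933-15377182, minus strand: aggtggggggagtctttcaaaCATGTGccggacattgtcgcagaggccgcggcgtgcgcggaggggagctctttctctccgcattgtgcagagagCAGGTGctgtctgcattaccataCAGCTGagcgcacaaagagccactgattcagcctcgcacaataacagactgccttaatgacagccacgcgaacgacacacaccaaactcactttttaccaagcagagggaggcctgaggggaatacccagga
Dll3, chr7:28301786-28302035, minus strand: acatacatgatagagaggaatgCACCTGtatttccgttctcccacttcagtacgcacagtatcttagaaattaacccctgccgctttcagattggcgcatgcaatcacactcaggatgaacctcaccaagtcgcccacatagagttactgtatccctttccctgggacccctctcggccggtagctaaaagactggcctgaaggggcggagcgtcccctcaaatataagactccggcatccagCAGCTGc
Neurod4, chr10:130280255-130280504, minus strand: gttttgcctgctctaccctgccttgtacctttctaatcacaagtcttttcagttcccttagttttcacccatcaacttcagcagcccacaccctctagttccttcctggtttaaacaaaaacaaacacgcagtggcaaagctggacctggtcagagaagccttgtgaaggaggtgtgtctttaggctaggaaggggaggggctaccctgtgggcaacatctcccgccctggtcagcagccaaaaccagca
In these windows CAGCTG began 171 bases before the start of Hes6, where CAACTG followed it after 1 base, 132 bases before that of Dll1 and 7 bases before that of Dll3.

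At the ES stage, the question was whether HPRT knockdown altered these genes before differentiation, and no difference was called. Neurod1, Hes6, Dll1 and Dll3 were tested, the others being at background. Their log2 fold changes of knockdown over control were -0.12, 0.13, 0.04 and -0.35, with 95% intervals from limma of -0.29 to 0.05, -0.03 to 0.30, -0.20 to 0.27 and -0.71 to 0.02. Thus 0 of 4 genes were called, 0 of 4 had an unadjusted limma p under 0.05, and of the 18411 probes tested 0.516% were called higher and 1.17% lower. Another probe of Hes6 gave 0.26 (limma adjusted p = 0.0135), under 1.5-fold. The sign for Dll1 turned under 1 other scaling.

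At the SNM stage, Neurod4 and Dll3 were lower in HPRT-knockdown cells. Neurod4 was 4.19-fold lower, with a log2 fold change of -2.07 (SE 0.12, limma adjusted p = 9.52e-10), and Dll3 was 1.63-fold lower, with -0.70 (SE 0.17, limma adjusted p = 0.00285). That of Dll3 shrank to -0.55 and was no longer called without knockdown SNM array 2, nor without background correction, at -0.55 and -0.57 by scaling. Of 7 genes tested, 2 were called lower and 0 higher, beside 8.9% of all 20765 probes tested that were called lower and 11% called higher, and the median was -0.43 against -0.04. Dll1 and Neurod1 passed the adjusted p but not 1.5-fold, at -0.43 (95% interval -0.67 to -0.19) and -0.48 (-0.65 to -0.32). Neurog2, the inducer of Neurod4 in other systems, had the opposite sign, with a log2 fold change of 0.56 (95% interval 0.39 to 0.73, limma adjusted p = 2.54e-05) and a fold of 1.47, just under the threshold. Without knockdown SNM array 3 it was 0.60 and was called higher. Its other probe gave 0.28 (95% interval -0.07 to 0.63). Hes6 at -0.05 (-0.22 to 0.12) and Neurog1 at -0.20 (-0.46 to 0.06) were not called, although the other probes of Hes6 gave -0.29 and -0.28 with limma adjusted p of 0.00093 and 0.000938. Of the 7 genes, 6 had knockdown and control arrays that did not overlap, as did 56.1% of all probes tested.

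At the neuronal stage, 5 of the 6 genes tested fell below control cells and Dll3 rose above them. Neurod1 was 2.39-fold lower in knockdown cells, with a log2 fold change of -1.26 (SE 0.08, limma adjusted p = 9.66e-10). Hes6 was 2.22-fold lower at -1.15 (SE 0.08, limma adjusted p = 3.09e-09), and its other probes gave -1.02 and -1.01. Neurod4 was 2.04-fold lower at -1.03 (SE 0.12, limma adjusted p = 1.61e-06), against knockdown arrays of which 1 of 3 detected it. Neurog2 was at least 1.78-fold lower (limma adjusted p = 3.04e-08), and by its other probe, which no knockdown array detected either, at least 1.48-fold lower. Dll1 was 1.59-fold lower at -0.67 (SE 0.11, limma adjusted p = 7.85e-05), and without control neuronal array 1 it stood at -0.57 and was not called. Dll3 was 2.66-fold higher at 1.41 (SE 0.17, limma adjusted p = 3.10e-06). The 5 lower and 1 higher of 6 stand beside 13.5% and 13.9% of all 20893 probes tested, and the median was -1.0 (-0.93 with Neurog2 at its bound) against 0.01. In all 6 genes the knockdown and control arrays did not overlap, as in 62.8% of all probes tested. Without background correction the log2 fold changes of Neurog2, Neurod4 and Dll1 shrank to between -0.52 and -0.33 and these 3 genes were no longer called.

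**Figure D3:**
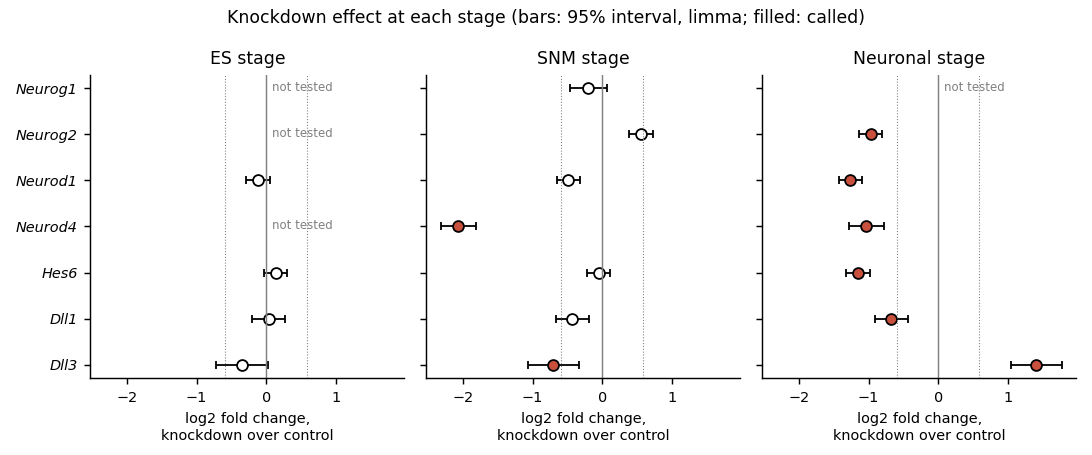
Log2 fold change of HPRT-knockdown over control cells (horizontal axis) at the ES, SNM and neuronal stages for the 7 genes tested at any stage, with 95% intervals from limma, filled points where called and dotted lines at 1.5-fold. Points lie near 0 at the ES stage, Neurod4 lies at -2.07 in SNM, and among neuronal values 5 genes lie between -1.26 and -0.67 with Dll3 at 1.41.

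The knockdown effect itself differed between stages for most of these genes. From the SNM to the neuronal stage it fell by 1.53 on the log2 scale for Neurog2, from 0.56 to -0.97 (SE 0.11, limma adjusted p = 1.39e-08), where -0.97 is a fitted value against a background reading and the size is therefore not exact. For Hes6 the difference was -1.10 (SE 0.11, limma adjusted p = 6.04e-07) and for Neurod1 -0.78 (SE 0.11, limma adjusted p = 2.74e-05). It moved up for Dll3, by 2.11 (SE 0.24, limma adjusted p = 2.63e-06), and for Neurod4, by 1.04 (SE 0.17, limma adjusted p = 9.56e-05), where the knockdown neuronal level had reached background. Dll1 gave a difference of -0.24 (95% interval -0.58 to 0.09), which was not called. Of 7 genes, 3 were called lower and 2 higher in this difference, beside 14.8% and 13.7% of all probes tested. Between the ES and SNM stages the difference was called for Neurod4 (-1.89, SE 0.17, limma adjusted p = 3.32e-07) and Neurog2 (0.73, SE 0.11, limma adjusted p = 9.38e-05), whose brightest probes were undetected in ES cells of either kind, so that these values include a difference between background readings. For Neurog2 that ES reading was -0.18, and its SNM effect alone was not called. That is 1 gene lower and 1 higher of 7, beside 9.61% and 11.7% of all probes tested. The other probe of Neurog2 gave 0.37 (95% interval -0.12 to 0.87).

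The counts for the pathway groups that follow stand beside the shares of all probes called higher and lower, which were 0.516% and 1.17% in ES cells, 11% and 8.9% in SNM and 13.9% and 13.5% in neuronal cells. Of the 7 receptors and other ligands of the Notch pathway tested among Notch1 to Notch4, Jag1, Jag2, Dll4, Dlk1 and Dner, knockdown cells at the neuronal stage had 1 called higher and 2 lower, with a median log2 fold change of -0.10 against 0.01 over all probes tested. Notch1, the main receptor of neural precursors, was higher at 0.70 (limma adjusted p = 2.35e-05), while Dlk1, a non-canonical ligand, was lower at -2.66 and Dner, a ligand expressed on neurons, at -0.64. In SNM, Dlk1 and Dner had been called higher, at 0.63 and 1.28, as 2 of 7 genes, and at the ES stage Notch4 was called higher at 0.86 as 1 of 6. Of 13 tested genes that process or modify receptor and ligand, 3 were called higher and 1 lower at the neuronal stage. The 3 were the gamma-secretase subunits Aph1a, Psen2 and Psenen at 0.73, 0.76 and 0.77, and the 1 was Neurl, a ubiquitin ligase that promotes ligand endocytosis, at -2.29. In this group 0 of 13 were called at the SNM stage, where 7 of the 13 had an unadjusted limma p under 0.05, and 1 of 13 at the ES stage (Psen2, 0.71).

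Among nuclear factors and targets of Notch, 2 of 8 tested genes were called higher and 2 lower at the neuronal stage, with a median log2 fold change of -0.05. Hey1 and Hey2, repressors that Notch induces, were higher in knockdown cells, at 1.64 and 2.06 (limma adjusted p = 6.23e-12 and 1.31e-10). Hes5, the Notch target most tied to neural precursors, was lower at -0.85, and Heyl, which no knockdown array detected there, was called lower too. Hes5 had log2 means of 8.85 in control and 9.39 in knockdown SNM and of 7.75 and 6.90 at the neuronal stage, and it was undetected in ES cells. Hes1 was not called at any stage. Hey1 and the co-activator Maml2 were called higher, at 0.74 and 0.82, in SNM, as 2 of 8. The bHLH partners and Id inhibitors set how much free bHLH protein can pair, and their list here also held Hes3 and Rest. In this list 0 of 7 tested genes were called by limma at the neuronal stage, where 3 of 7 had an unadjusted p under 0.05. In SNM, 1 of 8 was called higher, Id4 at 1.36, and 1 lower, Hes3, which no knockdown array detected.

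Among the other proneural and neurogenic factors, 9 of 16 tested genes were called lower and 5 higher in knockdown cells at the neuronal stage, with a median log2 fold change of -1.26. All 16 were detected on every control array there, and 11 were detected on every knockdown array. The rest passed the detection filter through control cells alone, so the count and the median include readings at or near background. The lower ones included Myt1l at -3.73, Ebf3 at -3.30, Ebf2 at -3.01, Sox11 at -1.78 and Insm1 at -1.49. Neurod2, which no knockdown array detected, was also among them. The higher ones included Gadd45g (1.08), St18 (1.01), Sox4 (0.89) and Myt1 (0.77). In SNM, 5 of 14 were called lower and 0 higher, namely Ebf1, Ebf2, Ebf3, Onecut2 and Insm1, with log2 fold changes from -1.92 to -0.69. At the ES stage 2 of 8 were called lower, Ebf3 at -1.0 and Sox11 at -0.71. Between the ES and SNM stages 14 of 14 tested genes of this group were called higher in control cells, with a median of 2.79, and 12 of 14 in knockdown cells, with a median of 2.61. Of all probes tested, 23.7% and 26.4% were called higher. All 14 were detected on every SNM array of their cell type, but 7 on every control and 8 on every knockdown ES array. The others passed the filter only through the SNM stage, where they are high, so these counts and medians rest partly on background readings.

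**Figure D4:**
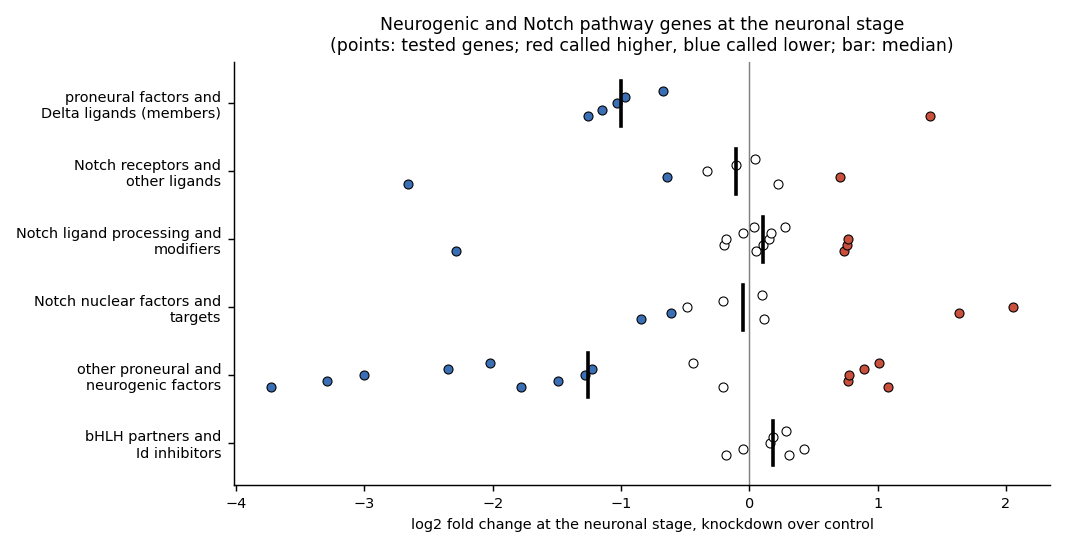
Log2 fold change of HPRT-knockdown over control cells at the neuronal stage (horizontal axis) for each tested gene of 6 groups, with red points called higher, blue called lower, open points not called and bars at the group median. The members have a median of -1.0 and the other proneural factors -1.26, while the Notch receptors, processing genes and targets have medians between -0.10 and 0.11. Of the other proneural factors, 16 were detected on every control array and 11 on every knockdown array, so their median includes readings at or near background. The same holds for the median of the members. Among them Neurog2 was undetected in knockdown cells, and Neurod4 was detected there on 1 of 3 arrays.

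Markers of several cell types moved in the same comparisons, and their part in the results above was not tested. Their counts stand beside the shares of all probes called higher and lower. These were 11% and 8.9% in SNM and 13.9% and 13.5% in neuronal cells. At the neuronal stage 5 of 8 tested markers of postmitotic neurons were called lower in knockdown cells and 0 higher, with a summed signal of 5432 to 6299 against 10954 to 11938. Snap25 was undetected in both, and Tubb3 was detected in control cells but on no knockdown array. Of the neural progenitor markers, 2 of 5 were called lower and 1 higher, with summed signals of 7242 to 8329 in knockdown and 5671 to 6091 in control cells. Besides muscle (8 of 9 called lower) and oligodendrocyte genes (8 of 8 called higher), 6 of 8 astrocyte markers were called higher and 1 lower, with summed signals of 17240 to 17594 against 12655 to 13958. Of 8 fibroblast and feeder markers 7 were called lower, with 12672 to 16071 against 23308 to 26927. In SNM, oligodendrocyte markers were lower in knockdown cells (4 of 7 called lower, summed signal 10243 to 11030 against 14507 to 14928). Their order between cell types matched that of Dll3 at both stages. The summed endocrine signals given below had that order as well, but at both stages most endocrine genes called went the other way. Other marker groups differed in SNM as well. Astrocyte markers were called higher in knockdown SNM in 4 of 8 tested (summed signal 20948 to 21760 against 14029 to 15523), muscle markers in 4 of 6 (1574 to 1687 against 920 to 935) and fibroblast markers in 3 of 8 (7512 to 9225 against 6609 to 7149), with 0 lower in each. Pluripotency markers were called lower in 5 of 8 (3352 to 3455 against 4997 to 5435) and markers of postmitotic neurons in 2 of 8 (6338 to 7280 against 7043 to 7907), with 0 higher. Of 6 neural progenitor markers 2 were higher and 2 lower, with a summed signal of 10765 to 12141 in knockdown against 5863 to 6341 in control cells. Of 5 sensory markers 2 were lower (964 to 1077 against 1045 to 1089), and of 5 endocrine genes 2 were higher and 1 lower (1300 to 1359 against 2006 to 2250). Outside the nervous system Dll3 is known from the presomitic mesoderm. Of that tissue's markers, 1 of 3 tested was called higher in knockdown SNM and 1 of 2 at the neuronal stage, with 0 lower. Among them brachyury stood at log2 means of 11.35 in knockdown and 7.92 in control SNM and of 9.40 and 5.16 at the neuronal stage. Mesp2, Ripply2 and Hes7 were undetected on all arrays. Neurog2 is shared with sensory ganglia and Neurod1 with endocrine cells. Of 8 pluripotency markers tested, 7 were called lower in neuronal knockdown cells and 0 higher, with summed signals of 1033 to 1122 against 4014 to 4265. Sensory markers were called lower in 3 of 5 and higher in 1 of 5 tested genes at the neuronal stage. Of 5 endocrine genes tested there, 4 were called lower and 1 higher, with Ins2 and Pdx1 undetected in both. The summed endocrine signal was nevertheless higher in knockdown cells, at 2706 to 2881 against 1887 to 2003.

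The genes whose pattern over the 18 arrays was most like that of each member are given by Pearson's correlation of log2 signal, as a description. The 18 arrays hold only 6 RNA pools, so these values mostly compare 6 levels. For Dll3 they were Mfsd2 (0.97), Mbp (0.96), which encodes a main protein of myelin, and Cbln2 (0.96). For Dll1 they were Dicer1 (0.98), Cldn5 (0.97) and Prdm13 (0.97), and for Hes6 Fat4, Slc17a6 and Hn1 (each 0.99), of which Slc17a6 is a glutamate transporter of neurons. Neurod4 was most like Nefm and Nef3 (each 0.98), both names of neurofilament probes and kept apart by symbol only, and D130032J17Rik (0.98). Neurog2 was closest to C130007D14 (0.99), Dgkk (0.97) and Mtch2 (0.97), and Neurod1 to genes that included Centd3 and LOC100044124 (each 0.97). The genes near background, Neurog1, Nhlh1 and Nhlh2, had no neighbour above 0.81. Among the members themselves Neurog2 and Dll1 were most alike (0.93), followed by Neurod4 and Dll1 (0.89) and Neurog2 and Hes6 (0.87), whereas Dll3 with Neurod1 gave -0.22 and Dll3 with Dll1 0.54.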

How the data were processed

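Total RNA of control and HPRT-knockdown ESD3 cells was hybridized to Illumina MouseWG-6 v2 BeadChips, which the authors scanned and quantified with Illumina's software. The deposited values are the mean bead signal intensity of each probe, without background subtraction or normalization, and its detection p-value. Per the labels, arrays were grouped by cell type and stage, and array numbers come from the titles. A second deposited table supplied probe symbols, and its 72 value columns, named by chip position only, were not used. In R 4.3.3, signals were corrected by the neqc function of limma 3.58.1 (detection p-values, offset 16), which quantile-normalizes and takes log2. A single limma model with 6 conditions was fitted to all 18 arrays and all probes, with two-sided tests, and its script was tested on simulated data. Within 3 against 3 arrays an exact permutation test cannot give a p below 0.1, so none is reported. A gene is represented by its brightest probe, and its other probes are stated. Where a probe was not detected on any array of 1 condition compared, the fold is a lower bound, from the higher of the lowest detected signal and the probe's own on each array. The genes named are the 9 members, Hprt1, genes of 5 pathway lists and 10 marker lists, and the 3 most similar genes per member, of which some are not reported here. The members and lists were chosen with earlier results of these data known. On the array the name Tcf3 stands for Tcf7l1, and it was left out. Promoters are RefSeq's, and no protein sequence or genome was used. In SNM, arrays with the same number deviated together from their means, at correlations across probes of 0.52, 0.11 and 0.51. At the neuronal stage the values were 0.64, 0.09 and 0.35, and at the ES stage -0.13, -0.01 and 0.11. The main model did not use the array number. As an alternative, the number was added as a replicate block over all 18 arrays, ES arrays included. Other alternatives were no background correction with quantile or 75th percentile scaling, no detection filter, a 2-fold minimum, only the arrays compared, the methods' unpaired and paired t-tests, the mean of a gene's probes, and leaving out each array.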

Additional observations from a re-analysis of the deposited data

Results flagged for a closer look

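The effect of HPRT knockdown on 5 of the 9 genes differed between stages when limma tested that difference itself, with 7 differences past the threshold. From the ES to the SNM stage the log2 effect changed by 0.73 for Neurog2 and by -1.89 for Neurod4, whose brightest probes no ES array detected, so that both values include a difference between background readings in ES cells. For Neurog2 the SNM effect alone, 0.56, was not called, and its other probe, detected on 1 control ES array, gave an uncalled 0.37. From the SNM to the neuronal stage it changed by -1.53 for Neurog2, -0.78 for Neurod1, 1.04 for Neurod4, -1.10 for Hes6 and 2.11 for Dll3. For Neurog2 and Dll3 the effect had opposite signs at these stages, and by their brightest probes the knockdown and control arrays did not overlap at either stage. The higher value of Neurog2 in knockdown SNM was not called, and the arrays of its other probe overlapped there. No knockdown neuronal array detected Neurog2, so that the size of its difference depends on a background reading. For Neurod4 the positive difference comes with a knockdown level near background at the neuronal stage, where 1 of 3 arrays detected it. Muscle and oligodendrocyte markers differed between cell types at the neuronal stage by the summed signals given above, and their part in these differences was not tested.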

How the results depend on the processing

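The count of genes called lower in knockdown cells at the neuronal stage, 5, fell to 2 without background correction under either scaling and to 3 with a 2-fold minimum, and lay between 4 and 5 when single arrays were left out. The cause was not tested. Neurog2, Neurod4 and Dll1 kept their direction and an adjusted limma p under 0.05 without background correction, at log2 fold changes of -0.44, -0.48 and -0.33 with quantile scaling. At the SNM stage the count called lower, 2, was 1 without background correction (either scaling), with a 2-fold minimum and with the adjusted t-tests of the methods, unpaired or paired, since Dll3 was lost; it ranged from 1 to 2 with single arrays left out, and the count called higher from 0 to 1. Calls also lost without background correction were the fall of Neurog2 in control cells (-0.57, quantile scaling), the rise and fall of Neurod4 in knockdown cells and the difference between SNM and neuronal stages for Neurod1 (-0.34 and -0.39, by scaling). Dll3 called higher in knockdown cells from the SNM to the neuronal stage gave 1, and 0 with a 2-fold minimum or the adjusted paired t-test. Neurog2 in the difference between the ES and SNM stages gave 1, and 0 with quantile scaling without background correction, a 2-fold minimum or the mean of its probes. The sign turned for uncalled values only: under 75th percentile scaling for Dll1 in ES cells (-0.0365), Neurog1 in control cells from ES to SNM (-0.24), Hes6 in control cells from SNM to the neuronal stage (-0.0309, and -0.0249 with the mean of its probes) and Neurog1 in the difference between SNM and neuronal stages (0.00081). With single arrays left out, the value for Dll1 in ES cells ranged from -0.10 to 0.13, and those for Neurog1 from -0.0552 to 0.15 (control, ES to SNM), -0.15 to 0.0649 (control, SNM to neuronal) and -0.21 to 0.00683 (that difference). Without background correction, 75th percentile in place of quantile scaling moved the median of all probes between ES and SNM from -0.06 to -0.17 in control and from -0.08 to -0.21 in knockdown cells. With the array number as a replicate block, the counts stayed at 0 and 0 (ES), 0 higher and 2 lower (SNM) and 1 higher and 5 lower (neuronal), and the block changed no call. The methods' paired t-test, a different fit, lost Dll1 at the neuronal stage (adjusted p = 0.0935), which left 4 genes lower there. The detection filter and the arrays in the fit changed no call. Signals near background limit what can be said of Neurog1, Nhlh1, Nhlh2 and the ES stage, and folds after background correction of dim probes depend on that correction.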
